A study of Ovis aries with 6 samples.

Results

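Transcripts of 5 genes of the vessel wall were compared between the body side skin of a fine wool and a coarse wool sheep breed. VCAM1, ICAM1, SELE and SELP encode adhesion molecules that endothelial cells display to passing leukocytes, and EDN1 encodes the precursor of endothelin-1, a peptide that constricts vessels. Probes of ICAM1, SELE, SELP and EDN1 were taken by the sheep RefSeq mRNA they target. VCAM1 was taken by the single probe under its name in the study's supplementary list of differentially expressed genes. These criteria gave 7 probes, each present as 1 spot, out of 15008 different non-control probes on the array. The 5 genes stand among 477 symbols that could be named in this way. That list came from these same arrays, so VCAM1 had already been called different when it entered the set. The study also picked VCAM1 from them for its quantitative PCR, which used the same RNA. The paper reports that this PCR matched the arrays for the genes it chose. The VCAM1 difference given here is therefore not independent evidence.

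RNA came from full-thickness skin of about 1 cm2 from 3 sheep of the Aohan fine wool breed and 3 of the small tail Han breed, all 12 months old, untreated and sampled while the wool follicles were in their growth phase (anagen). Each breed was represented by 1 ram and 2 ewes that shared 1 sire, and the labels do not say which animal was the ram. Every sheep had 1 Agilent array labelled with Cy3 (1 colour), and each breed had its own scan session for its 3 arrays. Breed, sire family and scan session therefore cannot be told apart. In whole skin, fewer cells of a type and less RNA per cell cannot be told apart either. The 75th percentile of the probe intensities lay between 1747 and 2309 in small tail Han sheep and between 1103 and 2048 in Aohan sheep, and 10774 to 13418 probes per array were well above background by the scanner software's mark. Skin markers were present on every array: the 6 tested genes of the skin list, among them the hair follicle keratins KRT25, KRT27 and KRT35 and the dermal proteoglycans DCN and BGN, were well above background on all 6 arrays, and none passed the breed test.

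Leukocytes leave the blood in steps. Selectins on the endothelium, E-selectin (SELE) and P-selectin (SELP), first bind carbohydrate ligands and make the cells roll, and the immunoglobulin superfamily molecules ICAM1 and VCAM1 then bind integrins and arrest them. Inflammatory cytokines such as TNF and IL-1 raise these molecules on endothelial cells, and P-selectin is also stored in endothelial granules and in platelets. Endothelin-1 is secreted by endothelium and also by keratinocytes, and it acts on smooth muscle and on melanocytes through its receptors.

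The members did not share a direction. VCAM1 was 1.94-fold higher in Aohan sheep and passed the test, whereas the 3 tested selectin probes had lower values in Aohan sheep, did not overlap between the breeds and did not pass. EDN1 had higher values in Aohan sheep without overlap but did not pass either, and ICAM1 overlapped between the breeds. Values are log2 processed intensities minus the array's 75th percentile, so a value of a probe at that percentile is 0, and differences are Aohan minus small tail Han with their standard error (SE) from the fit. The limma fit ran over 12481 probes with Benjamini-Hochberg adjustment, and a probe counted as passed below 0.05. This held for 1 of the 6 member probes tested, against 15.2% of all probes. At an unadjusted p under 0.05 there were 3 of 6, against 29.4% of all probes. All 3 values of a breed lay on one side of the other breed's at 5 of 6 member probes, while 34.2% of all probes did not overlap. Of these 5, 2 had higher values in Aohan sheep (17.8% of all probes) and 3 lower (16.4% of all probes). Among the 3 lower probes, 2 target the same SELP mRNA, so these counts are of probes and not of separate genes. VCAM1, taken from the study's list of differences on these arrays, is among the probes counted by adjusted p, by unadjusted p and by non-overlap. The median difference over the 6 member probes was -0.29, beside 0.025 over all probes tested, and 2 of the 6 differences were positive. Over all probes the quartiles of the absolute difference were 0.15, 0.32 and 0.60.

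**Figure D1:**
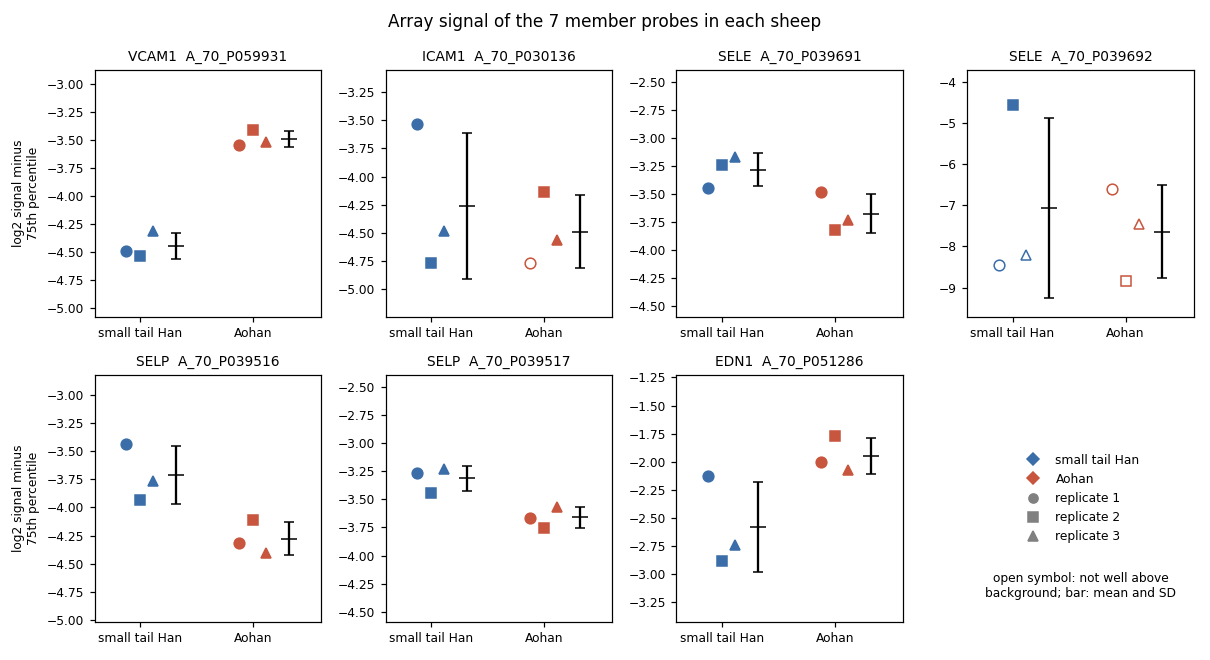
Each panel shows 1 member probe, with the log2 processed signal minus the array's 75th percentile on the vertical axis and the 3 small tail Han and 3 Aohan sheep along the horizontal axis. Symbols are single sheep, open where the probe was not well above background, and bars are the mean and SD of a breed. Axes span the same range except for SELE A_70_P039692, which was well above background in 1 sheep only. The breeds lie apart at VCAM1, SELE A_70_P039691, both SELP probes and EDN1, with the widest space at VCAM1 (0.77), and they overlap at ICAM1.

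VCAM1 (probe A_70_P059931) binds the integrin that pairs ITGA4 with ITGB1 on lymphocytes, monocytes and eosinophils. On the log2 scale relative to the 75th percentile, its values were -4.49, -4.54 and -4.31 in small tail Han sheep 1 to 3 and -3.54, -3.41 and -3.52 in Aohan sheep 1 to 3. The lowest Aohan sheep stood 0.77 above the highest small tail Han sheep, a wider space than the spread within either breed. Aohan sheep averaged -3.49 ± 0.07 (SD, n = 3), against -4.45 ± 0.12 (SD, n = 3) for the small tail Han sheep. VCAM1 was higher in Aohan sheep by 0.96 (SE 0.20, 95% interval 0.50 to 1.41, limma adjusted p = 0.0151), which is 1.94-fold with an interval of 1.41 to 2.66. The exact permutation test over the 6 sheep gave p = 0.1 (two-sided), the smallest value that 3 against 3 allows, here and at the other probes whose breeds did not overlap.

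The VCAM1 signal was dim, although it was well above background on all 6 arrays. Its processed intensities before scaling were 103, 79.1 and 88.0 in the small tail Han sheep and 94.7, 193 and 98.9 in the Aohan sheep. Unscaled, small tail Han sheep 1 lay above Aohan sheep 1 and 3, so the separation of the breeds at this probe appeared once each array was set to its own 75th percentile. The call was lost with a normexp background correction (0.47, limma adjusted p = 0.430). It was also lost when small tail Han sheep 2 was left out (0.91, limma adjusted p = 0.0721) and when Aohan sheep 3 was (0.97, limma adjusted p = 0.0634).

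ICAM1 (probe A_70_P030136) is the counter-receptor of the beta-2 integrins, whose shared chain is ITGB2. Its log2 values were -3.53, -4.77 and -4.49 in the small tail Han sheep and -4.77, -4.14 and -4.57 in the Aohan sheep. Small tail Han sheep 1 was the highest of the 6, and Aohan sheep 1 and small tail Han sheep 2 were level as the lowest. The sheep stood in no breed order. In Aohan sheep 1 the spot was not well above background, with a processed intensity of 40.5 against 47.6 to 200.3 on the other arrays. Aohan sheep averaged -4.49 ± 0.32 (SD, n = 3), against -4.26 ± 0.65 (SD, n = 3) for the small tail Han sheep. The difference was -0.23 (SE 0.35, 95% interval -1.03 to 0.57, limma adjusted p = 0.715), and the exact permutation test gave p = 0.6 (two-sided). This interval holds changes from 2.04-fold lower to 1.48-fold higher in Aohan sheep. Without small tail Han replicate 1 the difference was 0.14 (limma adjusted p = 0.804), so that animal set its sign.

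SELE, made by activated endothelium, had 1 usable probe of 2. At A_70_P039691 the log2 values were -3.45, -3.24 and -3.17 in the small tail Han sheep and -3.48, -3.82 and -3.73 in the Aohan sheep. The breeds did not overlap, but the highest Aohan sheep was only 0.034 below the lowest small tail Han sheep. Aohan sheep averaged -3.68 ± 0.17 (SD, n = 3), against -3.29 ± 0.15 (SD, n = 3) for the small tail Han sheep. The difference was -0.39 (SE 0.20, 95% interval -0.84 to 0.06, limma adjusted p = 0.229), or from 1.79-fold lower to 1.04-fold higher in Aohan sheep.

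The other SELE probe, A_70_P039692, was well above background in small tail Han sheep 2 alone and was not tested. Its processed intensity was 78.0 in that sheep and 4.43 to 11.3 in the other 5. The median pixel signal of the bright spot was 149 over a local background of 62. Both SELE probes carry the same mRNA accession, and at A_70_P039691 that sheep was the middle of the 3 of its breed.

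SELP (P-selectin) had 2 probes on the same mRNA, and both were well above background on all 6 arrays. At A_70_P039516 the log2 values were -3.43, -3.93 and -3.77 in the small tail Han sheep and -4.32, -4.11 and -4.41 in the Aohan sheep. All 3 Aohan values lay below the 3 small tail Han values, by at least 0.18. Aohan sheep averaged -4.28 ± 0.15 (SD, n = 3), against -3.71 ± 0.25 (SD, n = 3) for the small tail Han sheep. The difference was -0.57 (SE 0.23, 95% interval -1.08 to -0.05), a value 1.48-fold lower in Aohan sheep, and it did not pass (limma adjusted p = 0.133).

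At A_70_P039517 the log2 values were -3.27, -3.44 and -3.23 in the small tail Han sheep and -3.67, -3.75 and -3.56 in the Aohan sheep. This probe too had every Aohan sheep below every small tail Han sheep, with a space of 0.12. Aohan sheep averaged -3.66 ± 0.09 (SD, n = 3), against -3.31 ± 0.11 (SD, n = 3) for the small tail Han sheep. The difference was -0.35 (SE 0.19, 95% interval -0.77 to 0.08, limma adjusted p = 0.255). It passed in 1 of 17 alternatives, the methods' t-test on the authors' processed values (-0.41, adjusted p = 0.0286). The ratio of both SELP probes on 1 array overlapped between the breeds (difference -0.22, exact permutation p = 0.4, two-sided), so no unequal change of the pair was detectable with 3 sheep a breed.

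The selectin values also lay apart before scaling. Unscaled processed intensities of SELE A_70_P039691 were 211, 194 and 194 in the small tail Han sheep and 98.5, 145 and 85.2 in the Aohan sheep. At SELP A_70_P039517 they were 240.2, 169 and 186 against 86.9, 152 and 95.6, and at SELP A_70_P039516 they were 214, 120.3 and 128 against 55.4, 118 and 53.4. The Aohan arrays were also dimmer as a whole, apart from Aohan sheep 2, and that sheep had the highest unscaled Aohan value at each of these 3 probes.

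**Figure D2:**
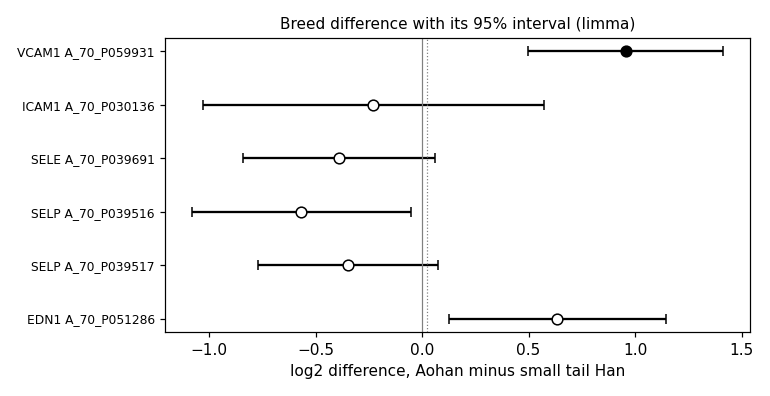
Difference between the breeds (Aohan minus small tail Han, log2, horizontal axis) for the 6 member probes tested, with its 95% interval from limma, filled where the adjusted p was under 0.05. The solid line marks 0 and the dotted line the median of all probes tested (0.025). VCAM1 at 0.96 is the only filled point, the intervals of SELP A_70_P039516 and EDN1 leave out 0 without passing after adjustment, and those of ICAM1, SELE and SELP A_70_P039517 hold 0.

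EDN1 (probe A_70_P051286) had log2 values of -2.13, -2.88 and -2.74 in the small tail Han sheep and -2.01, -1.77 and -2.07 in the Aohan sheep. Small tail Han sheep 1 stood apart from the rest of its breed and came within 0.054 of the lowest Aohan sheep, while the other small tail Han sheep were well below all Aohan sheep. Aohan sheep averaged -1.95 ± 0.16 (SD, n = 3), against -2.58 ± 0.40 (SD, n = 3) for the small tail Han sheep. The difference was 0.63 (SE 0.22, 95% interval 0.12 to 1.14), a value 1.55-fold higher in Aohan sheep that did not pass (limma adjusted p = 0.0950). Without small tail Han replicate 1 it was 0.86 and passed (limma adjusted p = 0.0155). Processed intensities before scaling were 528, 249 and 261 in the small tail Han sheep and 275, 600.4 and 268 in the Aohan sheep, and these overlapped.

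Small tail Han sheep 1 thus had the highest value of its breed at ICAM1, SELP A_70_P039516 and EDN1, and the lowest at SELE A_70_P039691. The members did not rank the animals of a breed in 1 order.

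Ratios between 2 member probes on the same array do not depend on the factor by which that array is scaled. They were formed for the 15 pairs of tested probes, and since each probe has its own brightness, a ratio was compared between sheep and never read as the level of one gene against another. The breeds did not overlap at 8 of the 15 pairs, beside 37.7% of all pairs of tested probes with a value on every array. The 15 pairs come from 6 probes, so they are not independent of each other or of the single-probe values. In the exact permutation test the smallest p was 0.1, or 0.188 after Benjamini-Hochberg adjustment over the 15 pairs, so no pair could pass in a design of this size.

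VCAM1 over SELP A_70_P039516 gave the widest space. This log2 ratio lay between 0.70 and 0.89 in the Aohan sheep and between -1.05 and -0.55 in the small tail Han sheep, a difference of 1.52, or 2.87-fold. VCAM1 over SELP A_70_P039517 differed by 1.30 and VCAM1 over SELE A_70_P039691 by 1.35, both without overlap. VCAM1 over ICAM1 differed by 1.19, also without overlap. The tested probes of ICAM1, SELE and SELP thus parted from VCAM1 between the breeds, whatever factor scales an array. A ratio does not remove the effect of background, and ratios were not formed with normexp. With normexp the breed differences lay closer together, at 0.47 for VCAM1 and -0.24 for SELP A_70_P039516. As reported they were 0.96 and -0.57. ICAM1 itself overlapped between the breeds, and VCAM1 was taken from a list of differences on these arrays.

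EDN1 stood to the selectins much as VCAM1 did. SELP A_70_P039516 over EDN1 lay between -2.34 and -2.31 in the Aohan sheep and between -1.30 and -1.02 in the small tail Han sheep, a difference of -1.20. SELE A_70_P039691 over EDN1 differed by -1.03, SELP A_70_P039517 over EDN1 by -0.98 and ICAM1 over EDN1 by -0.87, each without overlap. VCAM1 over EDN1 overlapped between the breeds, with a difference of 0.32 (exact permutation p = 0.2, two-sided), and SELE A_70_P039691 over SELP A_70_P039517 differed by -0.04 (exact permutation p = 0.9, two-sided).

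**Figure D3:**
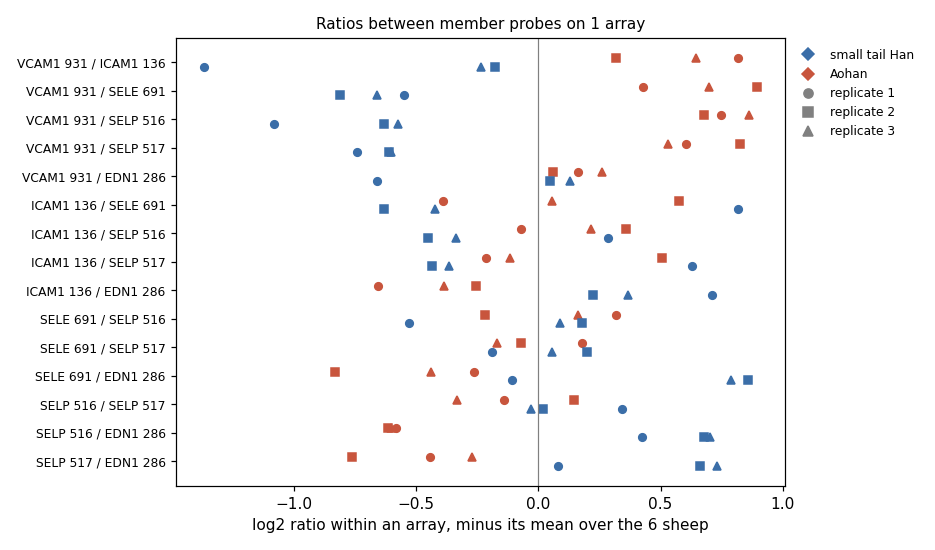
Log2 ratio of 2 member probes on the same array, minus the mean of that ratio over the 6 sheep (horizontal axis), for the 15 pairs of tested probes, named by gene and the last 3 digits of the probe. Each symbol is 1 sheep. The breeds lie apart in the rows that set VCAM1 against ICAM1, SELE or SELP and in the rows that set ICAM1, SELE or SELP against EDN1, which are 8 of the 15, and they overlap in the others.

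The integrins and ligands that meet these molecules, listed together with other adhesion molecules of vessels, were partly measured. Of 25 listed adhesion partners 6 had a RefSeq-named probe and 5 could be tested, and 2 of these rose in Aohan sheep while none fell (background 7.57% of all probes higher and 7.6% lower). Their median difference was 0.88, beside 0.025 over all probes. That median is the value of ITGAM, and it was 0.15 without Aohan replicate 1, 0.48 without small tail Han replicate 2 and 0.24 with normexp. ITGB1, the beta chain of the VCAM1-binding integrin and of many matrix receptors in most cell types, had log2 values of -3.20, -4.65 and -4.40 in the small tail Han sheep and -2.71, -1.91 and -2.47 in the Aohan sheep. It rose by 1.72 (SE 0.38, limma adjusted p = 0.0180), with no overlap. ITGB2, the chain of the ICAM1-binding integrins on leukocytes, rose by 0.95 (SE 0.18, limma adjusted p = 0.0108) at A_70_P030172 and by 0.70 (SE 0.17, adjusted p = 0.0284) at its other probe.

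The remaining partners did not pass, and they were named after their values had been seen. ITGAM, the alpha chain of a myeloid integrin, differed by 0.88 (SE 0.60, limma adjusted p = 0.377), with Aohan sheep 1 at -2.58 and the other Aohan sheep at -4.73 and -4.78, and CD40LG, a T cell ligand that activates endothelium, by 0.14 (adjusted p = 0.766). MADCAM1, a mucosal vessel adhesion molecule, had 2 probes that disagreed, at -0.63 (limma adjusted p = 0.0693) and 0.01 (adjusted p = 0.983), and the first passed as lower with quantile normalization and with the series matrix values. ITGAL, the alpha chain of the main lymphocyte partner of ICAM1, did not stand well above background on an array at either of its probes. Without small tail Han replicate 2 none of the 5 genes passed, and leaving out small tail Han replicate 3, Aohan replicate 2 or Aohan replicate 3 left 1.

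Leukocyte markers had positive differences, as VCAM1 did. Of 19 listed markers 6 could be tested. All 6 differences were positive at the brightest probe of each gene, with a median of 0.74 (0.025 over all probes). In Aohan sheep 3 genes rose and none fell (background 7.57% of all probes higher and 7.6% lower). Besides ITGB2, which is on both lists, these were the T cell receptor chains CD3E, by 1.11 (SE 0.23, limma adjusted p = 0.0135), and CD3D, by 0.92 (SE 0.24, adjusted p = 0.0362). CD3E also passed at its other probe, by 1.05 (limma adjusted p = 0.0104). CD3D did not pass at its other probe (0.73, limma adjusted p = 0.0880), and its brightest probe passed in 8 of 17 alternatives. CD14, a monocyte marker named after its values had been seen, was at 0.19 (limma adjusted p = 0.721) at its brightest probe and at -0.31 (adjusted p = 0.420) at its other probe. The summed level of the 6 tested markers, to which CD3E gave the most, as a percentage of the array's 75th percentile, was 761 to 927 in Aohan sheep and 347 to 559 in small tail Han sheep. CD4 was below the threshold for testing at both probes. Without small tail Han replicate 2 no gene of this list passed. In the methods' t-test, on the scaled signals or the series matrix values, 0 leukocyte markers and 0 adhesion partners passed. The part of leukocyte content in the VCAM1 difference was not tested.

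The amount of endothelium could not be followed. None of 20 listed genes tied to endothelium could be tested through a RefSeq-named probe. Pan-endothelial genes such as PECAM1 and CDH5 were not analysed here, so the member values cannot be set against the number of endothelial cells. For the mural cells that wrap vessels, 1 of 10 listed genes was measured: CNN1, a calponin of smooth muscle and also of the arrector muscles of the skin, fell by 1.31 (SE 0.24, limma adjusted p = 0.00936). Its log2 values were 5.36, 5.65 and 5.83 in the small tail Han sheep and 4.59, 3.85 and 4.46 in the Aohan sheep. Over all probes 7.6% passed as lower. The selectin probes and CNN1 thus both had lower values in the Aohan breed. Within the breeds, CNN1 was lowest in small tail Han sheep 1 and in Aohan sheep 2. In both of these sheep SELP A_70_P039516 was the highest of its breed and SELE A_70_P039691 the lowest. The part of smooth muscle content in the selectin values was not tested.

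Among 20 listed cytokines and sensors that act on endothelial adhesion genes, 13 had a named probe and 10 were tested. In Aohan sheep 3 rose and none fell (background 7.57% of all probes higher and 7.6% lower). The median difference was 0.49, beside 0.025 over all probes, and 6 of the 10 differences were positive. CXCL8, a chemokine that arrests rolling neutrophils, rose by 2.27 (SE 0.19, limma adjusted p = 0.00016) at its brighter probe. At its dimmer probe, well above background in only 2 small tail Han sheep, it rose by 4.23 (SE 0.27, adjusted p = 5.36e-05), and by 2.63 in the alternative with the smallest change. IL6, likewise well above background in only 2 small tail Han sheep, rose by 2.41 (SE 0.44, limma adjusted p = 0.00876). NFKBIA, an inhibitor of NF-kB that is itself induced by NF-kB, rose by 0.86 (SE 0.16, adjusted p = 0.00968). With normexp IL6 (0.76) and NFKBIA (0.46) did not pass. NFKBIA also did not pass with the signal before surface correction, and in the methods' t-test 1 gene of this list passed on the scaled signals and 2 on the series matrix values. The main inducers were measured too: TNF differed by 0.54 (limma adjusted p = 0.177), IL1B by 0.53 (adjusted p = 0.144) and IL1A by 0.45 (adjusted p = 0.446). IFNG, also on the list, had the opposite sign at -0.42 (limma adjusted p = 0.252), and none of these passed. TNF passed in 1 of 17 alternatives, without small tail Han replicate 3 (0.81), where 4 genes of the list rose, and IL1B in 1, with normexp. TNF, IL1A, IL1B and IFNG were named for their role, after their values had been seen.

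The endothelin axis around EDN1 was covered by 6 tested genes of 29 listed, and none passed in either direction, nor did any reach an unadjusted p under 0.05, and the methods' t-test passed 0 as well. All 6 differences were negative, with a median of -0.23. PTGS1, a cyclooxygenase, was at -0.50 (SE 0.23, limma adjusted p = 0.180). EDNRA, the receptor through which endothelin-1 contracts smooth muscle, named for that role after its values were seen, was at -0.18 (SE 0.24, 95% interval -0.72 to 0.35) at A_70_P012587 and at 0.07 at its other probe. The converting enzymes and EDNRB were not analysed here. The cyclooxygenase PTGS2 passed as lower with normexp and with the signal before surface correction. AGTR1, another gene of this list, passed as lower without Aohan replicate 1. Both were named after their values had been seen.

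Genes of platelets and coagulation, which could carry P-selectin with them, gave 4 tested of 23 listed. PLAUR, the urokinase receptor of leukocytes and endothelium, rose by 1.36 (SE 0.36, limma adjusted p = 0.0364), and it did not pass in 8 of 16 alternatives. None of the measured genes of this list is particular to platelets. The red cell gene HBB was at -0.83 (SE 0.37, limma adjusted p = 0.171), but it passed as lower with normexp (-0.91) and without Aohan replicate 3 (-1.27). The blood content of the samples was thus followed by 1 gene only, and its part in the member values was not tested.

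**Figure D4:**
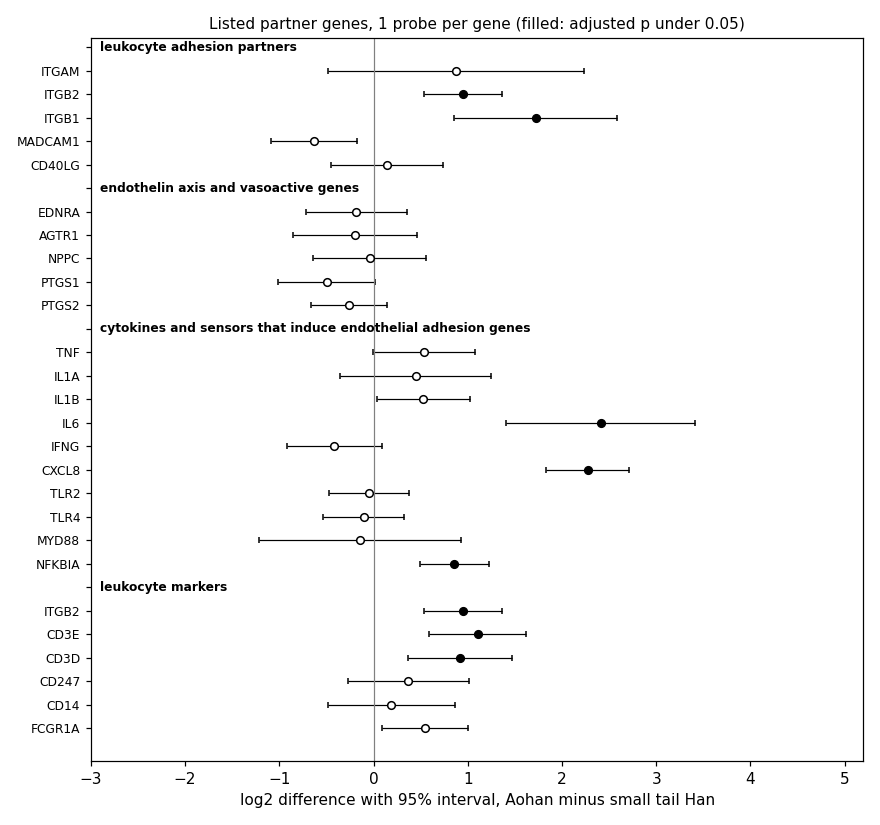
Difference between the breeds (Aohan minus small tail Han, log2, horizontal axis) with its 95% interval from limma, for tested genes of 4 lists, 1 probe per gene, filled where the adjusted p was under 0.05. Filled points are ITGB2 and ITGB1 among adhesion partners, IL6, CXCL8 and NFKBIA among cytokines and sensors, and ITGB2, CD3E and CD3D among leukocyte markers, all to the right of 0, and no gene shown of the endothelin axis is filled.

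Named genes with the most similar profile over the 6 arrays were ranked for each member probe well above background on all 6 arrays, which leaves out ICAM1, by the root mean square (RMS) of the log2 difference, after each profile had been centred on its own mean, over 366 genes. For VCAM1 the nearest were LOC443295 (0.11), the growth factor FGF2 (0.12) and ITGB2 (0.14). SELE A_70_P039691 was nearest to SC5 (0.066), LPAR1 (0.077) and CCL25 (0.077). The probe SELP A_70_P039516 was nearest to DGAT1 (0.087), IGFBP5 (0.090) and RHOBTB2 (0.13), and SELP A_70_P039517 to FTO (0.055), PYGM (0.097) and MMP2 (0.11). EDN1 was nearest to VDAC1 (0.096), ASIP (0.12) and TLR3 (0.12). These distances describe 6 arrays of 2 breeds, in which any probes with a like breed difference come close.

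Within the set, again without ICAM1, SELE A_70_P039691 and SELP A_70_P039517 were the closest pair of different genes (RMS 0.15), closer than the SELP probes were to each other (0.21). VCAM1 and EDN1 were at 0.30, while VCAM1 and SELP A_70_P039516 were farthest apart at 0.78.

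**Figure D5:**
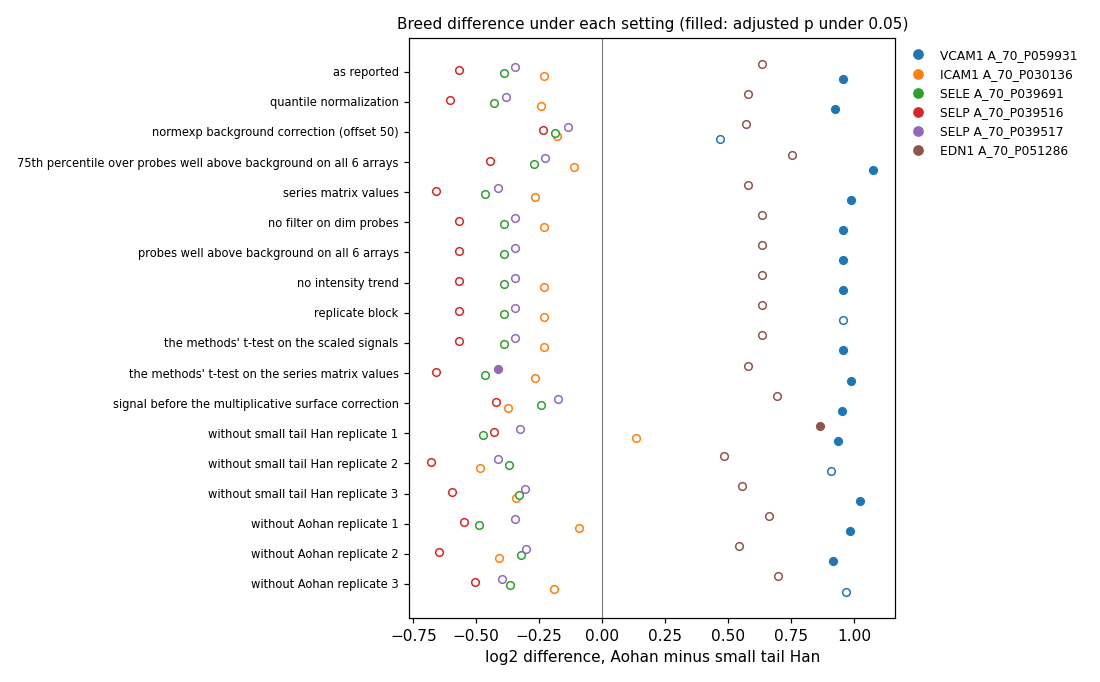
Difference between the breeds (Aohan minus small tail Han, log2, horizontal axis) of the 6 member probes as reported and in 17 alternatives (16 for ICAM1, which a filter on all 6 arrays removes), filled where the adjusted p was under 0.05. VCAM1 stays right of 0 in every row shown and is filled in all but 4 alternatives, EDN1 stays right of 0 and is filled without small tail Han replicate 1 alone, the selectin probes stay left of 0, and ICAM1 turns to 0.14 without small tail Han replicate 1.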

How the data were processed

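Skin RNA of 3 Aohan fine wool and 3 small tail Han sheep was hybridised to 1 Cy3 array per animal, and groups follow the breed labels. Per the file headers, the images were read by Agilent Feature Extraction (10.5.1.1), and the authors deposited background-subtracted intensity per spot, not normalized between arrays (the study's methods name another version). The headers record a multiplicative surface correction on 4 of 6 arrays (not small tail Han 2 and 3). Normalized log2 values were also deposited, in the series matrix, made by an unstated method. Every column has a median of 8.31, and per array they correlate with the scanner log2 values at 0.997 or higher, so their direction is known.

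Control spots and outlier-marked spots (9 to 51 per array) were dropped, and no spot was saturated. From the log2 processed intensity, averaged over a probe's spots, the 75th percentile of that array's non-control probes was taken away. A probe was tested (12481 of 15008) if well above background on 3 or more arrays with 2 or more values per breed, in limma 3.58.1, R 4.3.3 (intensity trend, two-sided, breed as the only term, since the ram of each breed is unknown), with Benjamini-Hochberg adjustment. The fit was tested on simulated data. Single probes and ratios were compared by exact permutation over sheep in scipy 1.17.1. P-values rest on siblings of 1 sire per breed. RefSeq accessions named 734 of 758 probes.

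Genes named are the members, the passing genes of each of 9 lists (up to 4 of smallest adjusted p, or the first 2 where none passed) and the 3 nearest profiles per member; others are marked as named after their values were seen. The result of 1 gene that this rule picks is left out. Where a gene had several probes, the brightest tested stood for it in list counts. Members and lists were chosen with earlier results of these data known. Alternatives were quantile normalization, normexp (offset 50), another scaling percentile, the series matrix, filters, no trend, a replicate block, the methods' t-test, leaving out each array and, chosen after seeing the data, the signal before surface correction. Scripts used Python 3.11.15 with pandas 2.3.3 and numpy 2.4.6, and plots matplotlib 3.10.9. Proteome data were not used here.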

Additional observations from a re-analysis of the deposited data

How the results depend on the processing

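All 17 alternatives kept the sign of VCAM1, of SELE A_70_P039691, of both SELP probes and of EDN1, and 13 of 17 kept the call of VCAM1. The VCAM1 call was lost with normexp (0.47, adjusted p = 0.430) and with the replicate number as a block (0.96, adjusted p = 0.0577), and leaving out 1 sheep gave 0.91 to 1.02, with adjusted p from 0.0256 to 0.0721. ICAM1 turned positive without small tail Han replicate 1 (0.14; -0.48 to 0.14 over the left-out sheep). EDN1 passed without that sheep (0.86; 0.49 to 0.86). SELP A_70_P039517 passed in the methods' t-test on the series matrix values (-0.41). Over all alternatives SELE A_70_P039691 ranged from -0.49 to -0.19, SELP A_70_P039516 from -0.68 to -0.24 and SELP A_70_P039517 from -0.41 to -0.14. The number of member probes that passed was 0 with normexp and with the replicate block, 2 in the methods' t-test on the series matrix values, and 0 to 2 with 1 sheep left out. Over all probes 945 were higher and 948 lower as reported. The replicate block gave 565 and 669, the methods' t-test 321 and 391 on the scaled signals and 347 and 517 on the series matrix values, and leaving out 1 sheep 348 to 1230 and 441 to 1018. Taking the 75th percentile over probes well above background on all 6 arrays gave 1277 and 802, so that 61.4% of calls were higher instead of 49.9%, and moved the median of all probes from 0.025 to 0.14. Under it VCAM1 was at 1.08 and the selectin probes kept their sign. Replicate numbers did not pair the sheep: the deviations of same-numbered sheep correlated at -0.22, -0.37 and 0.28 over 12410 probes, and 1 of 3 Aohan sheep correlated best with its own number. The signal before surface correction, chosen after seeing the data, changed no member's call. Signal over background limits these values, since the tested members lay between -4.77 and -1.77 relative to the 75th percentile.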
